A study of Homo sapiens with 15 samples.

Results

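The S100 proteins are small calcium-binding proteins with a pair of EF-hand loops. Their mRNAs were followed here in KPL4, a human breast adenocarcinoma cell line, through the genes S100A4, S100A6, S100A8, S100A9, S100A10, S100A11, S100A13, S100A14, S100A16 and S100P. The members were the rows of the gene count table whose Ensembl identifiers carry these symbols, which gave 10 of 60664 entries. All 10 passed the filter on low counts, which left 19516 genes to test.

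The series held 15 RNA-seq libraries in 5 groups of 3. Control cells were wild-type KPL4 with endogenous estrogen receptor β (ERβ, gene ESR2). Knockout cells were KPL4 lacking ERβ, and add-back cells were those knockout cells transfected with exogenous ERβ. These 3 groups were untreated and were maintained in HAM's F12 with 7% fetal bovine serum, 5 µg/mL insulin and 1 µg/mL hydrocortisone. The vehicle and LY500307 groups were both add-back cells, so both carried the knockout and the exogenous receptor. They were kept for 72 hours in medium without phenol red, with 1% serum treated with dextran-coated charcoal, and then received DMSO or 200 nM LY500307, an ERβ agonist, for 24 hours. The labels do not say how many clones the knockout rests on, or whether the 3 libraries of a group came from separate cultures. The p-values below therefore measure only the spread between libraries, which may be technical.

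S100 proteins work mostly as dimers that open a binding face when calcium enters the cell and then grip partner proteins such as annexins, myosin or ezrin. Several are also released and act outside the cell on receptors such as RAGE and TLR4. Most of the human genes sit in 1 cluster on chromosome 1q21, and in breast carcinomas S100A4, S100A8, S100A9 and S100P are widely studied for their links with invasion and inflammation.

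Total depth was 12614074 to 19390378 expected counts per library. The ESR2 level was 5.76 ± 0.867 in control cells (CPM, counts scaled to the size of the library, mean ± SD of 3 libraries), 4.41 ± 1.36 in knockout, 32.8 ± 1.94 in add-back, 45.2 ± 3.24 with vehicle and 43.9 ± 1.36 with LY500307. Knockout and control did not differ in ESR2 by edgeR's quasi-likelihood test, with p-values adjusted over all tested genes by Benjamini-Hochberg and 0.05 as the limit for a call (adjusted p = 0.0796). Loss of a protein through an edit of its gene can leave the mRNA in place, so the ESR2 level is no check of the knockout label. A list of 8 genes of HER2-amplified breast epithelium, among them ERBB2, KRT8 and EPCAM, summed to between 7611 and 11800 CPM in every library. Of 9 myeloid markers MPO and TYROBP were at 0 in all 15 libraries, and the list summed to at most 4.13 CPM. In RNA from whole cultures, fewer cells that express a gene and less RNA per cell cannot be told apart.

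The genes lie in 3 places (GRCh38, GENCODE 29), and 4 of them are described most often here: S100A9 (ENSG00000163220), S100A8 (ENSG00000143546), S100P (ENSG00000163993) and S100A4 (ENSG00000196154). S100A10 (chr1:151982915-151994390) and S100A11 (chr1:152032506-152047907) neighbour each other on the minus strand. The main cluster follows with S100A9 (chr1:153357854-153361027, plus strand) and then, all on the minus strand, S100A8 (chr1:153390032-153391188), S100A6 (chr1:153534599-153536244), S100A4 (chr1:153543613-153550136), S100A16 (chr1:153606886-153613145), S100A14 (chr1:153614255-153616986) and S100A13 (chr1:153618787-153631360). S100P stands alone on chromosome 4 (chr4:6693069-6697170, plus strand). Whether strand was used in counting is not given in the sources used here, so reads of a gene and of an antisense gene that overlaps it cannot be told apart. S100A13 overlaps S100A1 on the opposite strand (1.49 CPM on average), S100A6 overlaps BX470102.1 (0.244 CPM) and S100A11 overlaps AL450992.1 (0.109 CPM), all under the members' own levels. The margin was smallest for S100A13, in knockout cells at 13.1 CPM beside 1.55 CPM for S100A1. On the same strand S100A13 overlaps AL162258.1 (0.549 CPM) and S100A4 overlaps S100A3 (0.0464 CPM).

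Stretches just upstream of RefSeq start sites are shown as a description of the genes. A link between these letters and the changes between groups was not tested. The TATA box, the site where the TATA-binding protein docks, was searched as TATAAA on the coding strand in the 250 bases before each RefSeq start site (GRCh38.p14). It was found for S100A4, S100A8, S100A9, S100A13 and S100P, that is, for 5 of the 10 genes and in 6 of their 15 windows, against 6.803% of all 35116 windows. There are more windows than genes, since S100A8 and S100A13 have 3 start sites each and S100A16 has 2. Windows of a gene can overlap. In S100A8 the same TATAAA was matched 29 bases before the start site at 153391073 and 126 bases before that at 153390976. Below, 30 bases from 35 to 6 before the start site are printed 5′ to 3′ on the coding strand, with TATAAA in capitals, first for these 5 genes.
S100A8 (chr1:153391079-153391108, minus strand): aaccgcTATAAAaaggagctgcctctcagc
S100A9 (chr1:153357819-153357848, plus strand): gctgccTATAAAtgccgagcctgcacagct
S100P (chr4:6693843-6693872, plus strand): gctgcctTATAAAgcaccaagaggctgcca
S100A4 (chr1:153545812-153545841, minus strand): ggggTATAAAtaggtcagacctctgggccg
S100A13 (chr1:153627511-153627540, minus strand): gctgctTATAAAcctcagccctgaggctcc

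In these 5 the pattern began 28 to 31 bases before the start site. The remaining genes have no exact TATAAA, and 3 of their stretches follow for comparison.
S100A6 (chr1:153535997-153536026, minus strand): accgctataaggccagtcggactgcgacac
S100A14 (chr1:153616331-153616360, minus strand): cccaggtataagagctgagctcaggtgagc
S100A11 (chr1:152037010-152037039, minus strand): gcttgggcaaggctgggccgggaagggcgt

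GGGCGG, the core of the GC box bound by SP1, was found on either strand for S100A6, S100A9, S100A10, S100A11, S100A13 and S100A16, in 6 of the 15 windows, and in 42.639% of all windows. S100A9 and S100A13 held both patterns, in S100A13 before different start sites, and S100A14 held neither. The longer upstream stretches of S100A9, which held both patterns, and of S100A11, which held GGGCGG and no TATAAA, follow. In capitals are TATAAA and GGGCGG or its reverse complement CCGCCC.
S100A9 (chr1:153357604-153357853, plus strand): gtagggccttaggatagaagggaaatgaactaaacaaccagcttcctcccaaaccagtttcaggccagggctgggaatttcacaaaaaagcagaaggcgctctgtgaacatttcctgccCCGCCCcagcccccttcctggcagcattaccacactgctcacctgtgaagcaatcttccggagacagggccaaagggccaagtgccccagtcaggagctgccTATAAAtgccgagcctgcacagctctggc
S100A11 (chr1:152037036-152037254, minus strand): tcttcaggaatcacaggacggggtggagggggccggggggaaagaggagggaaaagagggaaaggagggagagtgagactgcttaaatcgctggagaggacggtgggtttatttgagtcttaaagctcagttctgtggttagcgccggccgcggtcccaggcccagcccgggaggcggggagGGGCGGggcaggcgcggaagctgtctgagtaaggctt

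The palindromic estrogen response element, AGGTCANNNTGACCT on either strand, was in 0 of the 15 member windows and in 0.003% of all windows. Its single arm AGGTCA occurred in 1 member window, that of S100A4, where 1 base separates it from the TATAAA shown, and in 12.08% of all windows. The AP-1 site TGANTCA was in 0 member windows (6.573% of all), the STAT site TTCNNNGAA in 0 (6.567%) and the glucocorticoid response element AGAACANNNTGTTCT in 0 (0.003%), while the C/EBP site TTGCNNAA was in 1, that of S100A11 (9.05%). The C/EBP match of S100A11 lies on the reverse strand at the ttgggcaa of the stretch printed first. Each figure covers only these letters in these windows.

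Levels of different genes were compared per length, as TPM, in which each transcript's count is divided by its length and scaled to the library. S100A6, S100A11 and S100P were the most abundant members and S100A8 the least, ranking last in all 5 groups. In control cells S100P stood at 401 ± 8.78 TPM (SD, n = 3), S100A6 at 341 ± 5.54, S100A11 at 268 ± 9.06, S100A10 at 231 ± 11.1, S100A16 at 143 ± 2.93 and S100A14 at 135 ± 0.358. The low members were S100A13 at 29.8 ± 1.38, S100A4 at 22.9 ± 2.26, S100A9 at 17.9 ± 2.04 and S100A8 at 1.57 ± 0.136 TPM. S100A9 moved from the ninth place in control cells to the seventh in knockout cells, at 70.6 ± 4.43 TPM, above S100A13 and S100A4. S100A10 and S100A16 could not be ranked in knockout cells, where their libraries overlapped (141 to 159.1 and 158.9 to 165 TPM).

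The place of S100P rests on how its reads are divided. RSEM assigned 44.4% to 48.9% of them, as group means, to S100P-202, a short processed transcript of 313 bases, and the rest to the coding transcript S100P-201 of 1279 bases. With all reads of the gene set against the coding transcript, S100P stood at 164 ± 4.71 TPM in control cells, the fourth place, and S100A6 was then the most abundant member in every group. S100A6, S100A8, S100A9, S100A10 and S100A11 were each carried by 1 coding transcript, with group means from 96.5% to 100% of reads. S100A13 differed from these, since the noncoding processed transcript S100A13-205 took 60.2% to 67.2% of its reads.

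**Figure D1:**
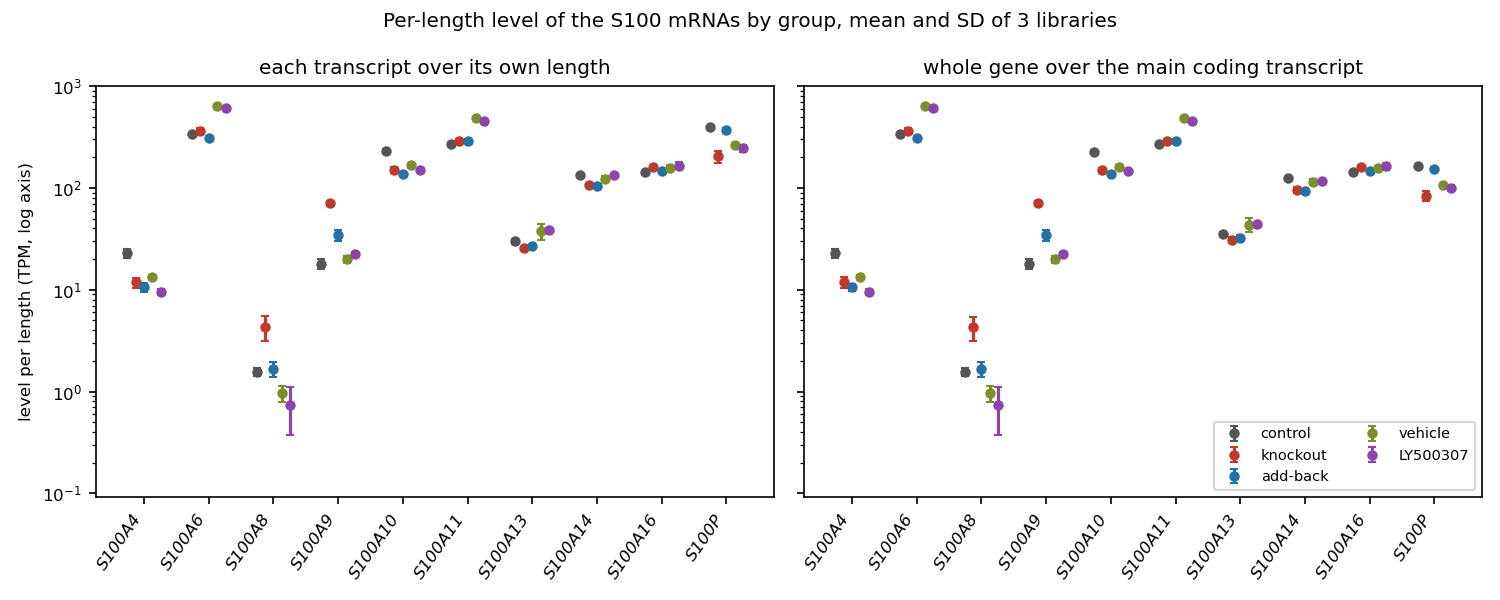
Level per length (TPM, log axis) of the 10 S100 mRNAs in each group; points are means and bars SDs of 3 libraries, with each transcript over its own length on the left and the whole gene over its main coding transcript on the right. S100A6 is highest on the right in all groups, S100P changes place between the panels, and S100A8 is lowest in both.

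The 10 members summed to 1591 ± 2.52 TPM in control, 1393 ± 18.7 in knockout, 1433 ± 60.5 in add-back, 1912 ± 50.9 in vehicle and 1833 ± 52.2 in LY500307 libraries. S100A6 made up 21.4% of this sum in control cells and 33.6% with vehicle, and S100A6 and S100A11 together 38.3% and 58.8%. Over the 5 groups the range of mean log2 CPM was 2.03 for S100A8, 1.88 for S100A9, 1.23 for S100A4, 1.09 for S100A6 and 1.05 for S100P. It was 0.83 for S100A11, 0.80 for S100A10, 0.59 for S100A13, 0.48 for S100A14 and 0.20 for S100A16. By the root mean square difference of profiles centred over the 5 groups, S100A6 and S100A11 were the closest pair (0.12 on the log2 scale), followed by S100A13 and S100A14 (0.16), and S100A6 and S100A8 the most distant (1.07).

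**Figure D2:**
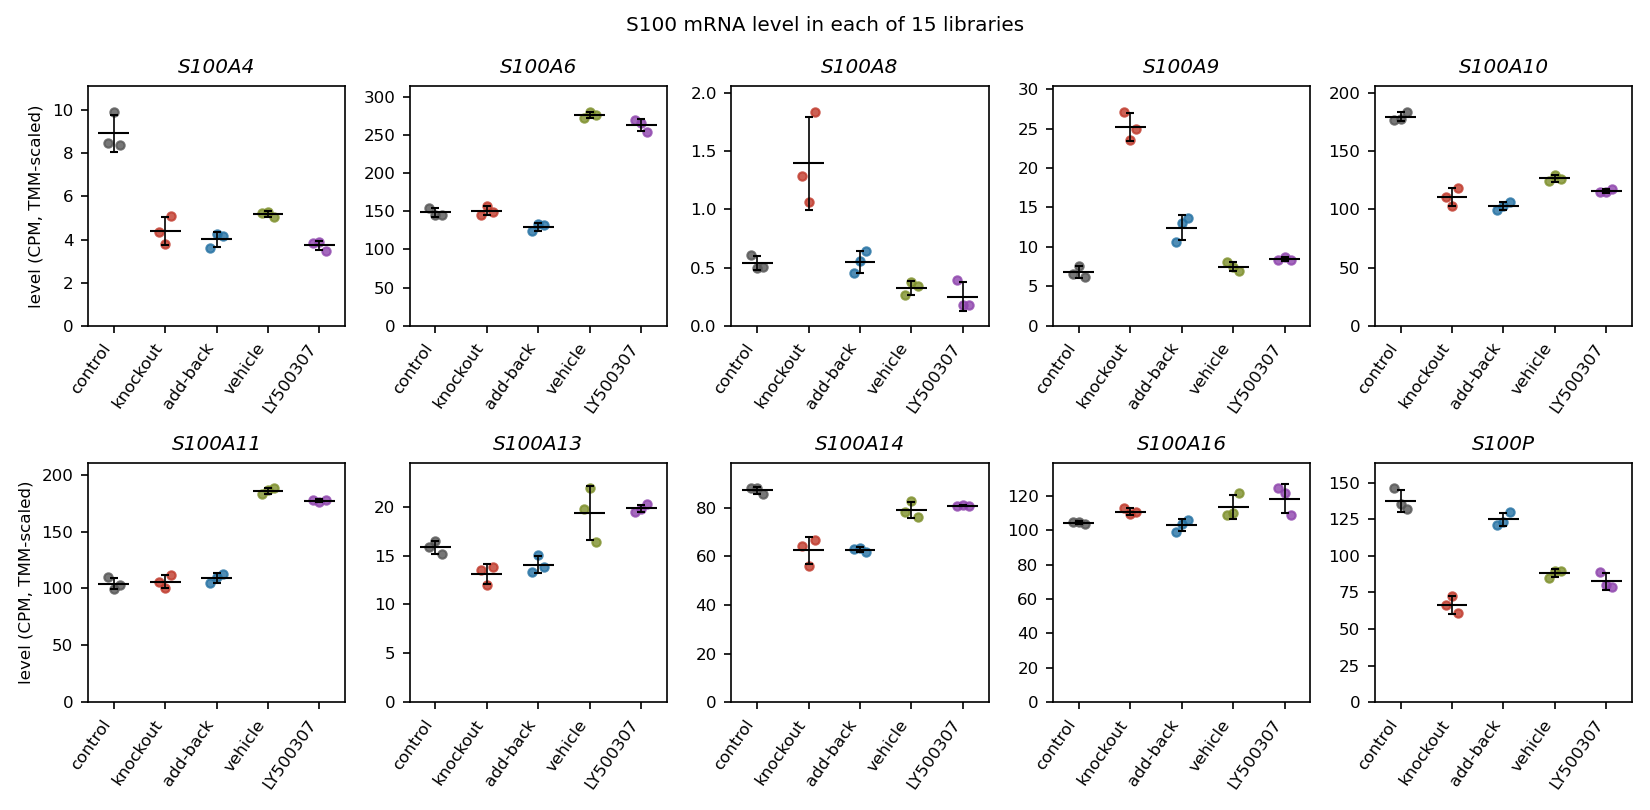
CPM of each S100 gene (linear axis from 0, 1 point per library, horizontal line and bars for mean and SD of 3 libraries) in the 5 groups. S100A8 and S100A9 stand highest in knockout cells, S100A4, S100A10 and S100A14 highest in control cells, S100A6 and S100A11 highest in the 2 treated groups, and S100P lowest in knockout cells.

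Knockout was set against control to ask which mRNAs differ when ERβ is lost. S100A8 and S100A9 rose in knockout cells, while S100P, S100A4, S100A10, S100A14 and S100A13 fell. The largest changes were rises of 3.72-fold for S100A9 and 2.61-fold for S100A8, and falls of 2.08-fold for S100P and 2.01-fold for S100A4. S100A6, S100A11 and S100A16 did not pass the test. So 7 of 10 members were called, 2 higher and 5 lower, where 46% of all tested genes were called, 23.4% higher and 22.6% lower. The median log2 fold change of the members was -0.12, against -0.00 over all genes. The libraries of the groups did not overlap for 8 members, against 52.6% of all genes.

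S100A8 and S100A9 form calprotectin, a secreted heterodimer known from neutrophils and inflamed epithelium that sequesters metal ions and binds TLR4 and RAGE. S100A9 was at 6.51, 7.64 and 6.19 CPM in the control libraries and at 27.1, 23.6 and 24.9 in the knockout libraries. Every knockout library lay more than 3-fold above every control library (log2 fold change 1.90 ± 0.10 (SE), adjusted p = 1.81e-11 by edgeR's quasi-likelihood test). S100A8 was at 0.606, 0.500 and 0.505 CPM in control and 1.28, 1.07 and 1.84 in knockout libraries. These values rest on few reads, 7 to 8 per control library and 14 to 30 per knockout library, and the groups did not overlap (log2 fold change 1.39 ± 0.33, adjusted p = 0.00163). The 95% interval of that change, 0.70 to 2.07, contains the value of S100A9. The myeloid list summed to 2.58 to 3.07 CPM in control and 2.89 to 3.21 CPM in knockout libraries, with MPO and TYROBP at 0. Of its other genes 1 passed the filter, ITGAM, and was not called between knockout and control. LYZ was at 0.0870 ± 0.0957 CPM in control, 0.388 ± 0.0368 in knockout and 0.0397 ± 0.0347 in add-back libraries. PTPRC was at 0.352 ± 0.131, 0.589 ± 0.128 and 0.220 ± 0.198 CPM in the same order. The means of LYZ, PTPRC and CSF1R were highest in knockout cells among these 3 groups, as were those of S100A8 and S100A9. Other genes of the list went the other way. CSF3R was at 0.238, 0.0949 and 0.630 CPM and CD14 at 0.072, 0.024 and 0.144 CPM, both lowest in knockout cells. ITGAM was highest in control cells, at 1.73 CPM against 1.43 in knockout cells. All but ITGAM were too low to test, and the part of these genes in the S100A8 and S100A9 results was not tested.

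S100P, first found in placenta, binds ezrin inside the cell and RAGE outside it. It was at 146, 135 and 132 CPM in control and 66.1, 72.4 and 60.6 CPM in knockout libraries, so the groups were far apart (-1.05 ± 0.06, adjusted p = 5.21e-11). S100A4, also called metastasin, binds the heavy chain of nonmuscle myosin and loosens its filaments. Its libraries stood at 8.48, 9.93 and 8.40 CPM in control and 4.35, 3.81 and 5.08 in knockout cells, with no overlap (-1.01 ± 0.12, adjusted p = 1.58e-06). S100A4 is often read as a fibroblast marker. A list of 6 fibroblast genes, of which 1 passed the filter and was tested, summed to 2.09 to 2.86 CPM in control and 2.64 to 3.18 in knockout libraries, most of it COL1A1, and their part in the result was not tested.

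S100A10, S100A6 and S100A11 are annexin partners. S100A10, which has lost calcium binding and sits with annexin A2 at the plasma membrane as a plasminogen receptor, was at 177, 178 and 184 CPM in control and 110.3, 103 and 118 CPM in knockout libraries. The change of -0.70 ± 0.04 (adjusted p = 1.91e-10) was the most precise of the falls. S100A6 (calcyclin), which binds CACYBP and several annexins, was at 155, 145 and 145 CPM in control and 145, 157 and 149 CPM in knockout libraries, and the groups overlapped (0.02 ± 0.04, adjusted p = 0.700). With offsets for GC content and transcript length, which remove each library's smooth trend on these properties, the same difference was -0.23 and passed the test (adjusted p = 0.000955), so its direction depends on that choice. S100A11 (calgizzarin), a partner of annexin A1 in membrane repair, was at 109.8, 99.9 and 103 against 106, 100.1 and 112 CPM (0.03 ± 0.05, adjusted p = 0.683), and its 95% interval reached from -0.07 to 0.12.

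The neighbours S100A16, S100A14 and S100A13 did not move alike. S100A14, which is known to pair with S100A16, was at 88.0, 87.9 and 85.6 CPM in control and 64.3, 56.2 and 66.9 CPM in knockout libraries (-0.48 ± 0.05, adjusted p = 2.82e-07). S100A16 was at 105, 105 and 103 against 113, 109 and 110.3 CPM. The knockout libraries were all above control, yet the difference of 0.09 ± 0.05 did not pass (adjusted p = 0.171). It passed in the 6 libraries of the comparison alone (0.10, adjusted p = 0.0421), and with the offsets it pointed down (-0.07, adjusted p = 0.253). S100A13, which takes part in the release of FGF1 from stressed cells, was at 15.9, 16.5 and 15.2 against 13.5, 11.9 and 13.8 CPM (-0.27 ± 0.10, adjusted p = 0.0297). That call was lost without control replicate 1 (adjusted p = 0.0568), control replicate 2 (0.0819) or knockout replicate 2 (0.123), and with DESeq2 (0.0616).

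**Figure D3:**
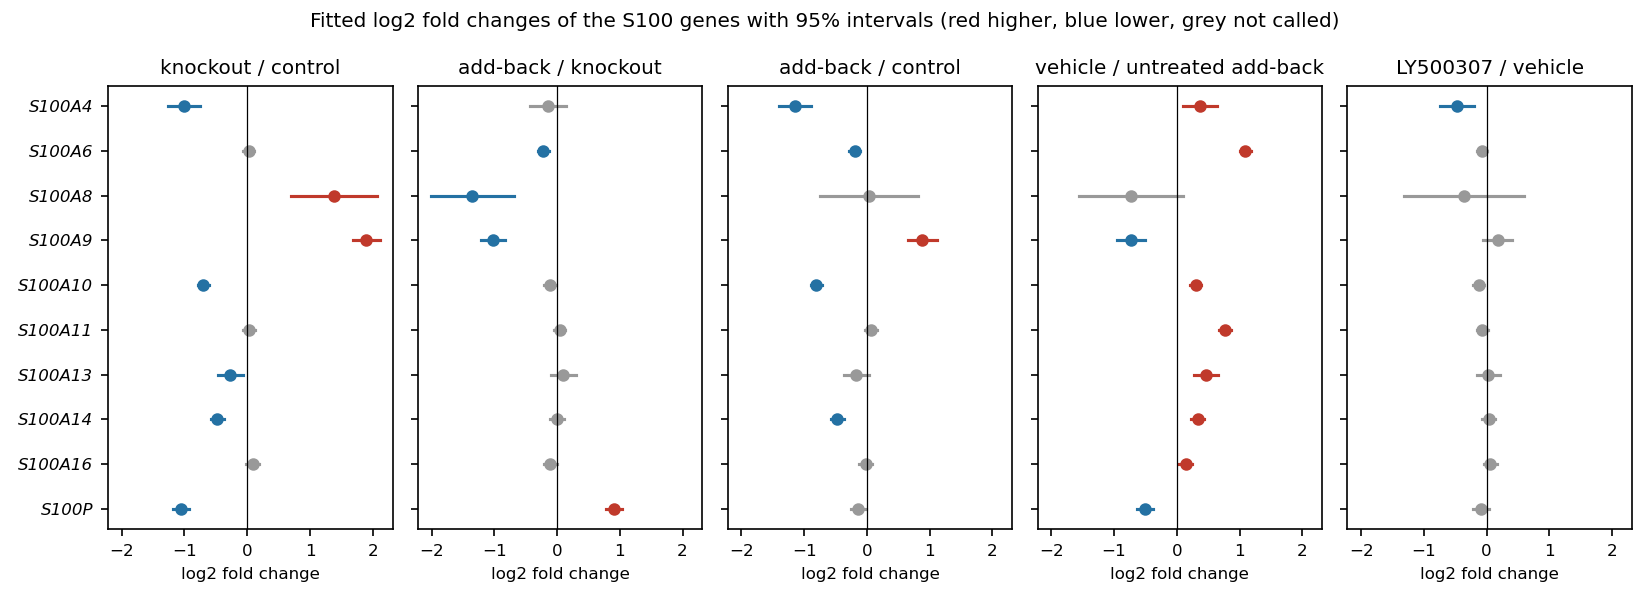
Fitted log2 fold changes (points) with 95% intervals (bars) of the 10 S100 genes in the 5 comparisons, red for called higher, blue for called lower and grey for not called at an adjusted p of 0.05. S100A9 reaches 1.90 in knockout against control and S100A6 1.09 in vehicle against untreated add-back, and the LY500307 panel holds 1 call.

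Among known S100 partners, 12 of 17 tested genes were called in knockout against control, 4 higher and 8 lower, beside the 46% of all genes. ANXA1, the partner of S100A11, fell from 398 ± 18.7 to 91.7 ± 1.79 CPM (SD, n = 3; -2.12, adjusted p = 7.91e-17). AHNAK, a scaffold bound by S100A10 with annexin A2, changed by -0.90 (adjusted p = 1.48e-11), SUGT1, a cochaperone bound by S100A6, by -1.05 (adjusted p = 1.01e-10), and TRPV6, a calcium channel bound by S100A10, by 1.24 (adjusted p = 2.37e-05). Of 5 receptor genes tested, 2 rose, beside the 23.4% of all genes called higher. CD36, a scavenger receptor that takes up calprotectin-bound lipid, rose from 0.766 ± 0.350 to 7.998 ± 1.13 CPM (adjusted p = 5.66e-10). BSG, a receptor of S100A9, rose from 120 ± 10.3 to 205 ± 23.2 CPM (adjusted p = 1.82e-07). Other EF-hand genes outside the S100 family had 7 of 20 higher and 3 lower, beside 23.4% and 22.6% of all genes.

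The stretches around the members did not share 1 direction. The chromosome 1 stretch ran unbroken from 500 kb before the first member to 500 kb after the last. Of its 26 tested protein-coding genes outside the members, 6 were called higher and 7 lower, and their median log2 fold change was -0.04. Of 14 around S100P, 4 were higher and 2 lower, with a median of 0.02. That is 50% and 42.9% called, near the 46% of all genes (23.4% higher and 22.6% lower). Nearby C4orf50 rose from 3.72 ± 0.366 to 26.2 ± 1.65 CPM (2.81, adjusted p = 3.68e-13) and WFS1 from 51.0 ± 2.93 to 115 ± 10.5 CPM (1.17, adjusted p = 1.78e-10) in knockout cells, opposite to S100P. S100A2, a cluster gene outside the members, fell from 1.59 ± 0.348 to 0.558 ± 0.144 CPM (-1.51, adjusted p = 0.00016). Of 17 other genes of the family, 3 were tested and 5 had 0 counts in all libraries, among them S100A7 and S100A12.

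Add-back was set against knockout to ask which levels change when ERβ is returned. These comparisons share the knockout libraries, so the values are given side by side and no agreement between them is read. S100P rose 1.88-fold, and S100A8, S100A9 and S100A6 fell, by 2.55-fold, 2.02-fold and 1.16-fold. S100A4, S100A10, S100A11, S100A13, S100A14 and S100A16 did not pass. So 4 of 10 members were called, 1 higher and 3 lower, where 19.6% of all genes were called, 10.4% higher and 9.19% lower. Of all calls 53.1% were higher, or 42% with upper-quartile scaling. The member median was -0.11, against -0.01 over all genes, and 5 members had groups that did not overlap, against 35.3% of all genes.

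S100A9 was at 10.6, 13.04 and 13.7 CPM in the add-back libraries, below every knockout library and above every control library. Against knockout the change was -1.02 ± 0.09 (adjusted p = 1.20e-07), and against control it was 0.88 ± 0.11 (adjusted p = 2.30e-06). S100A8 was at 0.453, 0.552 and 0.639 CPM, or 7 to 10 reads per library. It lay below all knockout libraries (-1.35 ± 0.32, adjusted p = 0.00467) and overlapped control, where the interval of the difference ran from -0.74 to 0.81 on the log2 scale. The myeloid list summed to 1.29 to 2.75 CPM in add-back libraries, and its part in these results was not tested.

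S100P was at 121, 123 and 130.0 CPM in the add-back libraries, all above the highest knockout library (0.91 ± 0.06, adjusted p = 2.23e-09). Against control it stood slightly lower without passing the test (-0.14 ± 0.06, adjusted p = 0.0555), and it passed with limma-voom (0.0439), upper-quartile scaling (0.0230), a CPM filter (0.0454) and the 6 libraries alone (0.0496). S100A4 was at 3.62, 4.25 and 4.15 CPM, within or below the knockout range. Its difference from knockout was -0.14 ± 0.14 (adjusted p = 0.529), with an interval from -0.43 to 0.14.

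S100A10 stood at 99.1, 103 and 107 CPM in add-back cells and overlapped knockout (-0.11 ± 0.04, adjusted p = 0.107), a difference that passed with upper-quartile scaling (adjusted p = 0.0361) and without knockout replicate 2 (adjusted p = 0.0410). S100A14 was at 63.0, 63.6 and 61.8 CPM (0.00 ± 0.05, adjusted p = 0.975), with an interval from -0.10 to 0.11. S100A6 was at 124, 134 and 131 CPM, below every knockout library (-0.22 ± 0.04, adjusted p = 0.000743). S100A11 (105, 109.7 and 113 CPM), S100A13 (13.3, 15.03 and 13.9) and S100A16 (99.1, 104 and 106) had adjusted p-values of 0.597, 0.530 and 0.156, and of these only S100A16 did not overlap knockout.

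Of 17 S100 partners tested, 3 were called in add-back against knockout, all of them higher. That is 17.6%, no more than the 19.6% of all genes called there. ANXA1 rose from 91.7 ± 1.79 to 178 ± 10.6 CPM (0.96, adjusted p = 4.43e-11), AHNAK by 0.52 (adjusted p = 1.98e-07) and SUGT1 by 0.31 (adjusted p = 0.00195). CD36 fell to 2.89 ± 0.0219 CPM (-1.47, adjusted p = 6.17e-06). The neighbour C4orf50 fell to 6.79 ± 0.0953 CPM (-1.94, adjusted p = 6.69e-11), while S100P rose. Of the genes around the chromosome 1 members 6 of 26 rose and 2 fell, and around S100P 2 of 14 rose and 2 fell. Over all genes 10.4% were called higher and 9.19% lower.

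Add-back against control compared cells with exogenous ERβ with those that have their own. S100A9 was 1.84-fold higher, and S100A4, S100A10, S100A14 and S100A6 were lower, by 2.22-fold, 1.75-fold, 1.39-fold and 1.14-fold. That made 5 of 10 members called, 1 higher and 4 lower, where 45.8% of all genes were called, 23.2% higher and 22.7% lower. The member median was -0.15, against -0.02 over all genes. Groups did not overlap for 7 members, against 53.3% of all genes. By gene, the changes were -1.15 ± 0.12 for S100A4 (adjusted p = 3.29e-07), -0.80 ± 0.04 for S100A10 (adjusted p = 4.44e-11), -0.47 ± 0.05 for S100A14 (adjusted p = 3.34e-07) and -0.19 ± 0.04 for S100A6 (adjusted p = 0.000616). S100A6 changed by -0.46 with the offsets (adjusted p = 2.52e-07). S100A16, at -0.02 ± 0.05 (adjusted p = 0.791), was called lower with them (-0.16, adjusted p = 0.00507).

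Vehicle-treated add-back cells were set against untreated add-back cells. Medium, serum and DMSO all differ between these groups, and the labels do not say whether insulin and hydrocortisone were kept, so their effects cannot be told apart. S100A6 rose 2.13-fold and S100A11 1.70-fold, and S100A13, S100A4, S100A14, S100A10 and S100A16 rose by 1.10-fold to 1.38-fold. S100A9 fell 1.66-fold and S100P 1.42-fold. S100A8 did not pass the test. So 9 of 10 members were called, 7 higher and 2 lower, where 48.1% of all genes were called, 26.4% higher and 21.6% lower. The member median was 0.32, against 0.01 over all genes. All 10 members had groups that did not overlap, against 55.8% of all genes.

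Among the annexin partners, S100A6 and S100A11 showed the largest rises of the members, and S100A10 a smaller one. S100A6 was at 272, 280.3 and 276 CPM in the vehicle libraries, around 2 times the untreated level in each (1.09 ± 0.04, adjusted p = 5.77e-14), and the change was 1.43 with the offsets. S100A11 was at 183, 186 and 188 CPM, far above every untreated library (0.77 ± 0.04, adjusted p = 3.54e-11). S100A10 was at 124, 129.6 and 126 CPM (0.30 ± 0.04, adjusted p = 1.36e-05). Their partners ANXA1 and ANXA2 were also higher, ANXA1 from 178 ± 10.6 to 444 ± 16.8 CPM (1.32, adjusted p = 2.54e-14) and ANXA2 from 601 ± 20.5 to 897 ± 26.2 CPM (0.58, adjusted p = 2.11e-11). Among all 17 S100 partners tested, 5 were called higher and 3 lower. That is 47.1% called, near the 48.1% of all genes. By edgeR's quasi-likelihood test SYT1 was also higher (0.90, adjusted p = 1.60e-05), while STUB1 was lower (-0.65, adjusted p = 3.17e-07). Per length, S100A10 amounted to 19.9% of ANXA2 in untreated and 16.6% in vehicle libraries.

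S100A10 and annexin A2 hold plasminogen at the cell surface, and 3 of 4 tested genes of plasminogen activation rose with vehicle, beside the 26.4% of all genes called higher. PLAU, the urokinase, rose from 4.0003 ± 0.297 to 22.9 ± 1.14 CPM (2.52, adjusted p = 3.31e-13), its inhibitor SERPINE2 from 4.99 ± 0.573 to 18.9 ± 2.10 CPM (1.92, adjusted p = 2.59e-11) and its receptor PLAUR from 1.92 ± 0.299 to 5.27 ± 0.698 CPM (1.45, adjusted p = 1.06e-06). In knockout against control 2 of these 4 were higher and 1 lower, beside 23.4% and 22.6% of all genes. In add-back 2 were lower against knockout and 2 lower against control, beside 9.19% and 22.7%. With LY500307 0 were called, beside 7.12% of all genes. A link of these genes with S100A10 was not tested. Of 20 other EF-hand genes 10 were higher and 3 lower with vehicle, beside 26.4% and 21.6% of all genes, with the calpain subunit CAPN2 at 0.84 (adjusted p = 2.72e-14).

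S100A9 was at 8.03, 7.47 and 6.95 CPM with vehicle, below all untreated add-back libraries (-0.73 ± 0.11, adjusted p = 9.81e-06). S100A8, at 0.261, 0.374 and 0.341 CPM or 4 to 7 reads per library, was also below all of them but did not pass (-0.73 ± 0.40, adjusted p = 0.163). The estimates were equal to 2 decimals, with the wider error for S100A8, which had 4 to 10 reads per library in these groups where S100A9 had 102 to 236. S100P was at 85.0, 89.4 and 89.7 CPM (-0.50 ± 0.06, adjusted p = 7.81e-07). S100P and S100A9 were the members that fell here.

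The other cluster genes rose by less than S100A6 and S100A11. S100A13 was at 19.8, 21.9 and 16.3 CPM (0.46 ± 0.09, adjusted p = 0.000267) and S100A14 at 78.4, 82.6 and 76.2 CPM (0.33 ± 0.05, adjusted p = 1.77e-05). S100A4, at 5.23, 5.29 and 5.04 CPM, changed by 0.37 ± 0.13 (adjusted p = 0.0252), and the call was lost in 8 of 16 alternatives, with DESeq2 at 0.145 and without add-back replicate 1 at 0.134. S100A16, at 109, 110.2 and 121 CPM, changed by 0.14 ± 0.05 (adjusted p = 0.0256), and the call was lost in 12 of 16, with an adjusted p of 0.386 without vehicle replicate 3. Around the chromosome 1 members 5 of 26 genes were higher and 5 lower, beside 26.4% and 21.6% of all genes. S100A2, 1 of them, rose from 0.818 ± 0.0904 to 2.09 ± 0.204 CPM (1.34, adjusted p = 9.57e-05). Of 4 endothelial markers, the 3 that could be tested were also higher in this comparison, beside the 26.4% of all genes. The list summed to between 16.4 and 18.8 CPM in untreated and between 51.9 and 53.2 CPM in vehicle libraries, most of it KDR, while PECAM1, which did not pass the filter on low counts, stayed under 1 CPM in every library. Their part in the S100 results was not tested.

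LY500307 was set against vehicle to ask what the agonist changed in add-back cells. S100A4 was lower with LY500307, at 3.85, 3.87 and 3.46 CPM against 5.23, 5.29 and 5.04 with vehicle, and these libraries did not overlap. The fall was 1.39-fold (-0.48 ± 0.13, adjusted p = 0.0322). It was the only call among the 10 members, where 7.12% of all genes were called, 4.77% higher and 2.35% lower. The member median was -0.07, against -0.02 over all genes, and 5 members had groups that did not overlap, against 26.1% of all genes. The S100A4 call did not hold in 9 of the 15 alternatives that gave a p. Among these were the 6 libraries alone (adjusted p = 0.0586), no filter on low counts (0.108), and fits without vehicle replicate 1 (0.111) or 2 (0.141) or LY500307 replicate 1 (0.0849), 2 (0.0861) or 3 (0.110). Its estimate stayed between -0.50 and -0.41.

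None of the other 9 members passed the test between vehicle and LY500307. S100A6 was at 270.1, 265 and 254 CPM with LY500307, just below the vehicle libraries (-0.07 ± 0.04, adjusted p = 0.312). S100A10 was at 115, 115 and 117 CPM, again below vehicle (-0.13 ± 0.04, adjusted p = 0.0849). With the offsets both passed, S100A6 at -0.23 (adjusted p = 0.0147) and S100A10 at -0.19 (adjusted p = 0.0291), while S100A4 did not (adjusted p = 0.0616). S100A11 was at 178, 176 and 178 CPM (-0.07 ± 0.04) and S100A9 at 8.32, 8.70 and 8.39 CPM (0.18 ± 0.11), with no overlap with vehicle for either and adjusted p-values of 0.392 and 0.387.

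S100P was at 89.2, 80.0 and 78.5 CPM (-0.09 ± 0.06, adjusted p = 0.402), and its interval of -0.22 to 0.03 leaves out a change as large as that between knockout and add-back. S100A14 (80.9, 81.1 and 80.7 CPM), S100A13 (19.5, 19.8 and 20.3) and S100A16 (124, 122 and 109) differed by 0.03, 0.03 and 0.06 and overlapped vehicle. S100A8 was at 0.396, 0.181 and 0.176 CPM, or 3 to 7 reads, and with an interval from -1.32 to 0.59 on the log2 scale a difference was not detectable at this depth. Over all genes the count of calls moved from 1389 to 299 without vehicle replicate 2, 403 without vehicle replicate 1, 487 and 586 without LY500307 replicates 2 and 1, and 262 with the offsets.

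Among the partners, ANXA2 was slightly lower with LY500307, at 830.2 ± 1.14 against 897 ± 26.2 CPM (-0.11, adjusted p = 0.0376), as was IQGAP1, a scaffold bound by S100P (-0.12, adjusted p = 0.0217). STUB1, a ubiquitin ligase bound by S100A2 and S100P, was higher (0.29, adjusted p = 0.0187). That made 1 higher and 2 lower of 17, beside 4.77% and 2.35% of all genes. The receptor BSG rose from 124 ± 13.7 to 164 ± 4.46 CPM (0.40, adjusted p = 0.00584).

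In every comparison except add-back against knockout, the offsets for GC content and transcript length moved S100A6 more than any other member. S100A6 has the highest GC content of the members, 59.8%, followed by S100A16 with 57.4%, whose estimate for knockout against control also changed sign. Under the 16 alternatives of each comparison S100A9 stayed called in the 3 comparisons of untreated groups, and S100P in knockout against control and add-back against knockout.

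**Figure D4:**
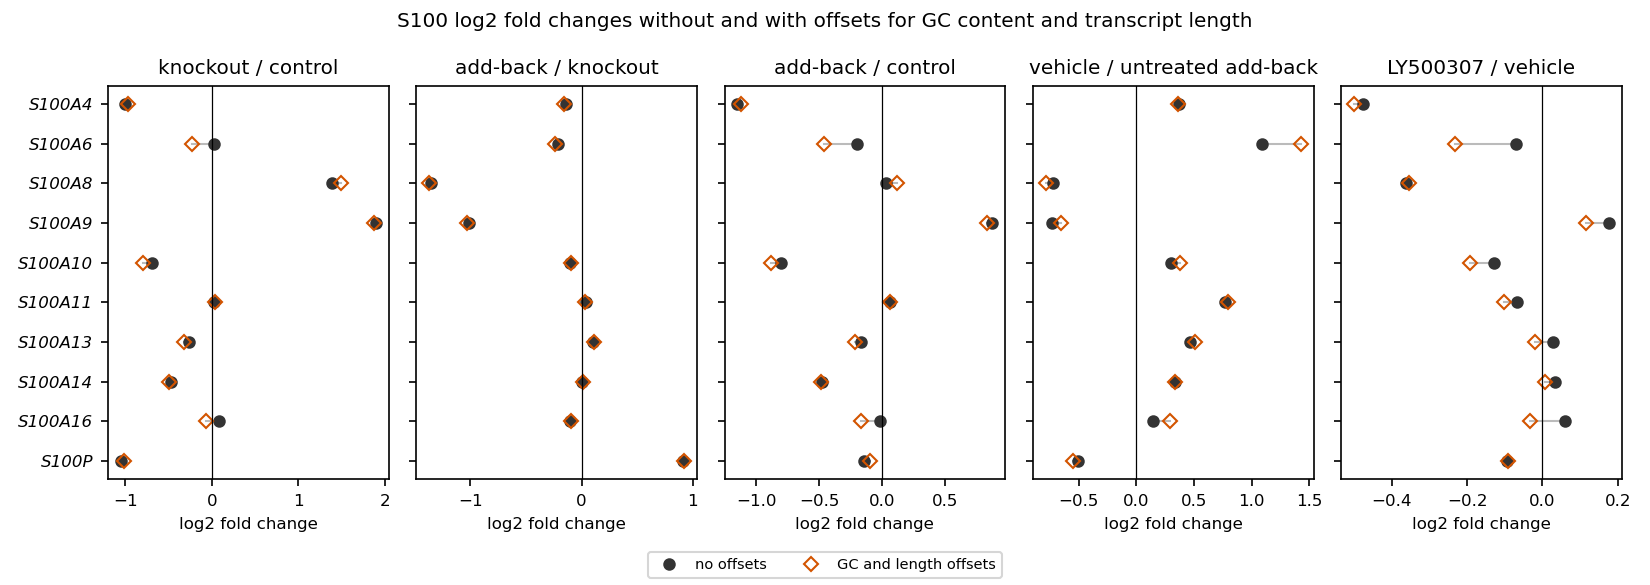
Log2 fold change of each S100 gene in the 5 comparisons without offsets (filled circles) and with offsets for GC content and transcript length (open diamonds), on axes that differ between panels. S100A6 moves from 0.02 to -0.23 in knockout against control and from 1.09 to 1.43 in vehicle against untreated add-back, while S100A4, S100A9, S100A14 and S100P move little.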

How the data were processed

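The 15 KPL4 libraries were made from total RNA after ribosomal depletion, with a stranded kit. Per the submitters' processing notes, the tools were FastQC, Trim Galore and, on GRCh38, GSNAP with RSEM; versions, annotation release and strand use in counting are not given in the sources used here. The deposited values were the authors' unnormalised expected counts from RSEM for genes and transcripts, and gene values were rounded to whole numbers here.

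Tests used edgeR 4.0.16 (R 4.3.3) with filterByExpr, TMM factors and a model with 1 mean per group fitted to the 15 libraries together. Quasi-likelihood F tests, which are two-sided, gave p-values that were adjusted by Benjamini-Hochberg over 19516 genes, with 0.05 as the limit. The biological coefficient of variation was 4.99%. Differences between replicates were 2.11 to 5.16 times counting error (chi-square per degree of freedom), so no library was a copy of another. Levels are CPM with TMM scaling. Positions, lengths and GC content came from GENCODE 29, which held 58396 of the identifiers, and 94.7% to 95.2% of transcript counts had a length for TPM. The fits were tested on simulated data.

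The members, the gene lists (S100 family, partners, receptors, plasminogen activation, EF-hand, neighbours, cell type markers) and the tests were chosen with earlier results of these data known. Of each list, the text names up to 4 called genes per comparison, those with the largest change whose mean log2 CPM is 1 or more, and up to 3 neighbours at any level. Alternatives were DESeq2 1.42.0, limma-voom (limma 3.58.1), RLE and upper-quartile factors, no filter, a filter at a CPM of 1 in 3 libraries, fits of a comparison's own 6 libraries, a replicate block, offsets that remove each library's smooth trend on GC content and length, the block with the offsets, and leaving out each library in turn.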

Additional observations from a re-analysis of the deposited data

How the results depend on the processing

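Of 26 called changes of S100 genes, 22 kept direction and call under every alternative that gave a p. For S100A8 in add-back against knockout, 1 of the 22, DESeq2 gave no adjusted p, and it called 3 members there instead of 4. The 4 that did not were S100A13 in knockout against control, S100A4 in LY500307 against vehicle, and S100A4 and S100A16 in vehicle against untreated add-back. Of 24 uncalled ones, 7 passed under at least 1 alternative. Of 794 member values under alternatives, 33 lost a call in the same direction, 13 gained one in the same direction and 18 changed sign. Among those that changed sign, S100A6 in knockout against control also gained a call, with the offsets and with the block and offsets. The cause was not tested.

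With the GC content and length offsets, without and with the replicate block, S100A6 (-0.23 and -0.23) and S100A16 (-0.066 and -0.066) changed sign in knockout against control, as did S100A13 (-0.020 and -0.015) and S100A16 (-0.032 and -0.032) in LY500307 against vehicle. S100A14 in add-back against knockout was at -0.027 with upper-quartile factors. S100A16 in add-back against control was at 0.012 with no filter and 0.0015 in the 6 libraries alone. Leaving out 1 library at a time, changes that crossed 0 ran from -0.0087 to 0.051 for S100A6 and -0.014 to 0.066 for S100A11 in knockout against control, -0.047 to 0.072 for S100A14 in add-back against knockout, -0.058 to 0.14 for S100A13 in LY500307 against vehicle, and -0.062 to 0.17 for S100A8 and -0.021 to 0.030 for S100A16 in add-back against control.

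For LY500307 against vehicle, 1389 genes were called, 262 with the offsets, 217 with the offsets and block, and 299 to 1844 leaving out 1 library; 67% of calls were higher, or 83.1% with no filter. Members called went from 1 to 0 with DESeq2 (which gave S100A4 no adjusted p), with no filter and in the 6 libraries alone, each with 2 members at an unadjusted p under 0.05, to 2 with the offsets and 2 with the offsets and block, and to between 0 and 1 leaving out 1 library.

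The replicate numbers were not seen to pair libraries: residuals of libraries with the same number correlated from -0.191 to 0.174 across genes, and 2 of 30 such pairs exceeded 0.1. With the replicate block 8807 genes were called in knockout against control, 3561 in add-back against knockout and 1216 in LY500307 against vehicle, and the block alone changed no member's call. Depth limits S100A8 most, with 3 to 30 reads per library.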

Other observations

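The genes nearest S100A8 in the pattern of their means over the 5 groups, regardless of level, were SLC34A2, GABRQ, MATN2, ZNF704 and CD24. SLC34A2 is a sodium-phosphate cotransporter, GABRQ a GABA receptor subunit, MATN2 a matrix protein and CD24 a surface glycoprotein. Likeness was the root mean square difference of log2 CPM profiles centred over the groups, among the 10008 protein-coding genes whose log2 CPM averaged 3 or more, and it was 0.13 for SLC34A2, 0.19 for GABRQ, 0.21 for MATN2, 0.26 for ZNF704 and 0.27 for CD24. SLC34A2 stood at 107 CPM in control, 242 in knockout, 112 in add-back, 64.0 with vehicle and 68.4 with LY500307. CD24 stood at 282, 523, 348, 233 and 222 CPM in the same order. S100A9, the dimer partner of S100A8, was at 0.38. S100A8 had 3 to 30 reads per library, and its fitted changes had SEs of 0.32 to 0.46 on the log2 scale. These errors exceed the distances of the genes named first, so the order of those genes and S100A9 is not resolved at this depth. The profiles used a prior count of 2, which narrows differences most in genes with few reads. The 5 points of each profile share libraries and scaling factors, so this is a description of these groups only.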
